A study of Mus musculus with 29 samples.

Results

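The 34 genes described here encode enzymes of cholesterol synthesis and proteins that sense or move sterols, and all 34 are among the 11959 genes of the count table. They were chosen by symbol, matched to the Ensembl identifiers of the table, and comprise 20 synthesis enzymes (8 from acetoacetyl-CoA thiolase to the prenyl diphosphates, 12 from squalene synthase to cholesterol), 7 genes of the SREBP control machinery, the 2 LXR receptors and 5 genes of sterol transport and storage. RNA was sequenced from 3T3-L1 cells, an established mouse line of fibroblast-like preadipocytes that form white adipocytes in culture. At confluence, from day -2 to day 0, cells received 10 µM KDM5-C70 (C70), an inhibitor of the KDM5 demethylases of histone H3, or the DMSO vehicle, and neither was given afterwards according to the labels. Cells were collected on days 0, 1, 2 and 7. Preadipocyte medium was used up to day 0, differentiation medium from day 0 to day 2 and adipocyte medium after day 2, so each group had the media up to its own day. There were 3 vehicle and 4 C70 samples on days 0, 1 and 2, and 4 of each on day 7, or 29 samples in 8 groups. The model is a cell line, and the labels number the samples without saying whether they came from separate cultures, so P values measure the spread between these samples, which may be technical.

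Total counts ranged from 16320275 to 24037170 per sample. Levels are given as CPM, counts scaled to a common library total with TMM factors (trimmed mean of M values). A gene was called where its adjusted P value was under 0.05 and its log2 fold change was over 0.322 in size, which is a rise of 25% or the matching fall. The share of all 11959 genes called the same way is given as the background. SE stands for an approximate standard error of a log2 fold change, the size of the change divided by the square root of edgeR's F statistic. The samples are labelled adipocyte at every day, but on day 0 the adipocyte markers Adipoq, Plin1, Cidec and Retn had means of 0.283, 0.314, 0.963 and 0.129 CPM in vehicle, whereas in vehicle on day 7 Adipoq reached 1339.7 ± 189 CPM (SD, n = 4). Lpl, which preadipocytes also express, was already at 1237 ± 61.7 CPM (SD, n = 3) on day 0.

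Cholesterol is built from acetyl-CoA by way of mevalonate, farnesyl diphosphate, squalene and lanosterol, and the mevalonate branch also feeds the prenyl groups of proteins, ubiquinone and dolichol. The genes of the pathway are classic targets of the SREBP transcription factors, which are held in the endoplasmic reticulum by SCAP and the INSIG proteins when sterols are plentiful and are cut free by the site-specific proteases encoded by Mbtps1 and Mbtps2 when sterols are low. The LXR receptors answer oxysterols and raise genes of cholesterol export such as Abca1. In fat tissue, adipocytes store much cholesterol as free sterol around the lipid droplet, and a product of Srebf1 is known as a driver of lipogenic genes during adipogenesis.

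The promoters of 4 members are shown. Matches to the CCAAT box (CCAAT, bound by NF-Y) and to the sterol regulatory element (TCACNCCAC, bound by SREBPs) are in capitals. Insig1, Mvd and Cyp51 are the members with the largest fall after C70 on day 2 that had a promoter entry with a match, and Hmgcs1 was added after the motif search because it held the match to the sterol regulatory element. Each is a RefSeq promoter of 300 bases on GRCm38.p6, from 250 before to 50 after the annotated start, printed 5′ to 3′ on the strand of the gene, and ATTGG is CCAAT on the opposite strand.
Insig1, chr5:28071162-28071461 (plus strand): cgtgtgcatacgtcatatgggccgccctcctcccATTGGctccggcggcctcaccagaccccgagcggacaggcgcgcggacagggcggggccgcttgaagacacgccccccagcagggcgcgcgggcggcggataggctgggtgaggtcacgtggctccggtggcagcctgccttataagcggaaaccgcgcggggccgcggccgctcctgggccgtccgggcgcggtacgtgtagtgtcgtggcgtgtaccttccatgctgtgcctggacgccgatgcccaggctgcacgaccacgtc
Mvd, chr8:122443373-122443672 (minus strand): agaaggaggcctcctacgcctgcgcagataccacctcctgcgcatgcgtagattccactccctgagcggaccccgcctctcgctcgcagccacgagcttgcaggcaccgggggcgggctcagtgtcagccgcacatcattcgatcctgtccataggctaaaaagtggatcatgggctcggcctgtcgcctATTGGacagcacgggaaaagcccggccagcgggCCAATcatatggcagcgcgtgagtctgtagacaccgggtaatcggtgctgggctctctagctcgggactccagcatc
Cyp51, chr5:4104648-4104947 (minus strand): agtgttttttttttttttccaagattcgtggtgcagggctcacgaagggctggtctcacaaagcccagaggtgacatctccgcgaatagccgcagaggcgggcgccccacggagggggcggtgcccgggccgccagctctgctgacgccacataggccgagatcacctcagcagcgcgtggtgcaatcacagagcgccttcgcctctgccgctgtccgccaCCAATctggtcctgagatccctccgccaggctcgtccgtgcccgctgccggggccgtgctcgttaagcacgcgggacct
Hmgcs1, chr13:119690101-119690400 (plus strand): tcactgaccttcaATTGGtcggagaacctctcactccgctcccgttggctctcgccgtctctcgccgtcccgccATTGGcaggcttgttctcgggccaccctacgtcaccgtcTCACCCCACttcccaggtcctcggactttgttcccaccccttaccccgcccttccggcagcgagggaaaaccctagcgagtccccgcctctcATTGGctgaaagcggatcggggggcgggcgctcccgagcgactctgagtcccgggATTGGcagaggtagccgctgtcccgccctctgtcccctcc

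RefSeq promoter entries were found for 29 of the 34 members, in 38 windows, and Fdps, Fdft1, Sqle, Stard4 and Npc1 had none. On either strand, CCAAT occurred in 22 of the 29 members and in 16 of the 17 enzymes with an entry, Acat2 being the exception, whereas 43.6% of the genes of the count table with an entry and 37.4% of all windows of the same length held it. TCACNCCAC occurred in Hmgcs1 alone of the 29, against 1.24% of all windows. A GC box (GGGCGG, bound by Sp1) occurred in 24 of the 29 members, against 70.6% of table genes with an entry and 35.7% of all windows. A match is a description of these windows and was not tested as a binding site, and its absence says only that these letters are not in these bases. Whether matches go with the calls after C70 was not tested.

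**Figure D1:**
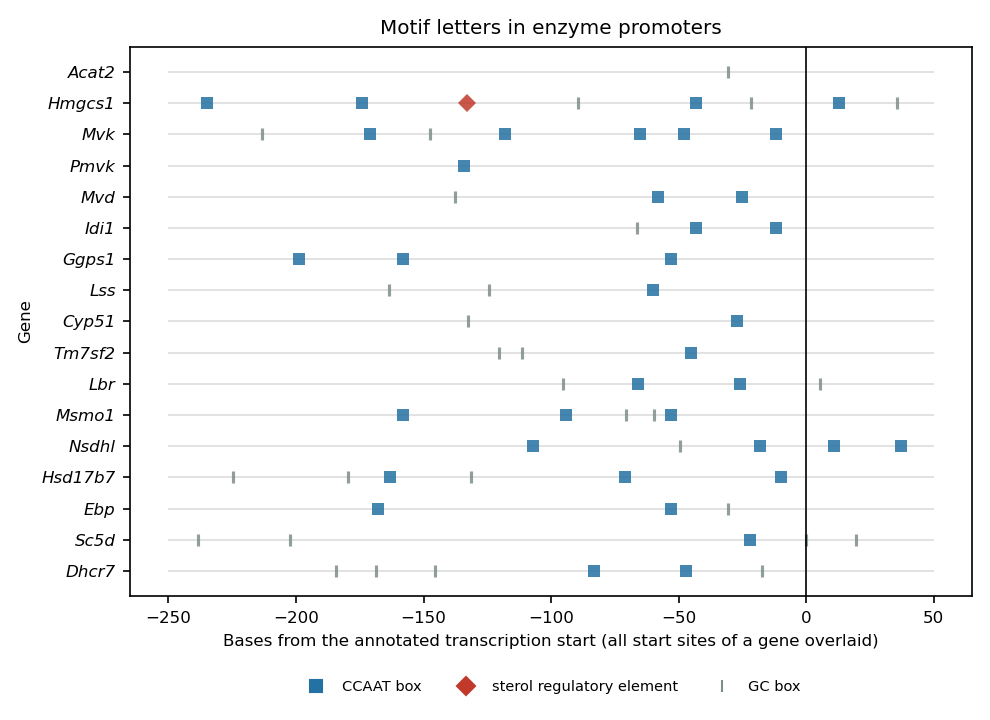
Positions of CCAAT (squares), TCACNCCAC (diamond) and GGGCGG (ticks) in the promoters of the 17 enzyme genes with a RefSeq entry, in bases from the annotated start, with all start sites of a gene overlaid. CCAAT stands in 16 of the 17 genes and mostly within the bases before the start, and the diamond stands in Hmgcs1 alone.

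The members spanned a wide range of levels. Mean CPM over all samples ran from 8.17 for Fdps to 784.7 for Npc2. Divided by exon length, the level in vehicle on day 2 was highest for Cyp51 (364 ± 4.91 CPM per kb, SD, n = 3), followed by Insig1 (199 ± 4.89) and Npc2 (137 ± 4.18), and lowest for Fdps (2.18 ± 0.0294). After C70 on day 2 the same scale put Npc2 first (155 ± 3.70 CPM per kb, SD, n = 4) and Cyp51 after it (135 ± 7.32). Some levels may be split with near copies: Fdps has 4 processed pseudogenes with 96.1% to 98.9% identity over 605 to 1066 aligned bases, Idi1 has 2, Fdft1 and Ggps1 have 1 each, and Acat2 is 97.7% identical to Acat3 over 1477 bases. Tm7sf2, with Vps51, and Fdps, with Gm22935 and Gm43738, are among the members that overlap another gene on the same strand. Libraries were made strand-specific, but the use of strand in counting is not given in the sources used here, and Hmgcs1, Mvd, Idi1, Fdft1, Lss, Cyp51, Srebf1 and Insig2 are among the members that overlap a gene on the other strand.

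In vehicle cells most enzyme genes were called lower on day 1, and most were called higher on days 2 and 7. Against day 0, 14 of the 20 enzymes were called lower and 2 higher on day 1, 2 lower and 12 higher on day 2, and 1 lower and 17 higher on day 7. The background was large in these comparisons, with 27.9% of all genes called lower and 26.2% higher on day 1, 32.4% and 33.4% on day 2, and 36.7% and 36.7% on day 7. The median log2 change of the enzymes was -0.66, 0.41 and 0.85 on days 1, 2 and 7, beside medians over all genes of 0.00822, 0.022 and 0.00834. The genes called lower on day 1 and higher on day 2 were Hmgcs1, Mvk, Mvd, Fdps, Lss, Msmo1 and Nsdhl, 7 of the 20, against 0.769% of all genes. The day 2 call of Mvk was lost in 5 of the 29 fits that left out 1 sample (log2 changes of 0.301 to 0.3195).

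After C70 most enzyme genes were again lower on day 1, and more of them than in vehicle were still lower on day 2. Against day 0 of the C70 cells, 16 of the 20 were called lower and 2 higher on day 1 (background 26.8% and 25.8%). There were 11 lower and 3 higher on day 2 (30.8% and 31%), and 2 lower and 10 higher on day 7 (35.4% and 35.9%). The median log2 changes were -1.13, -0.68 and 0.36, beside medians over all genes of 0.00504, 0.00931 and -0.00359. Cyp51 alone of the 20 was called lower on day 1 and higher on day 2, and 9 enzymes were called lower on day 2 in the C70 course but not in the vehicle course: Mvk, Mvd, Idi1, Fdps, Fdft1, Sqle, Tm7sf2, Msmo1 and Hsd17b7. Of all genes, 0.385% had the pattern of Cyp51 and 4.27% that of the 9. Each course was set against its own day 0, and the 2 changes from day 0 to day 2 were not tested against each other. Tm7sf2 had means of 18.6 CPM after C70 and 10.5 in vehicle on day 0, and 8.78 after C70 on day 2. The summed level of the 20 enzymes was 1412 ± 84.0 CPM in vehicle and 1558 ± 50.2 after C70 on day 0 (± SD, n = 3 or 4). It was 897 ± 44.0 and 747 ± 6.01 CPM on day 1, 3766 ± 56.7 and 1812 ± 70.3 on day 2, and 4058 ± 192 and 3132 ± 126 on day 7. The sums of vehicle and C70 samples did not overlap on days 1, 2 and 7, with C70 lower, and overlapped on day 0. Cyp51 held a larger part of the sum on days 2 and 7 than any other enzyme.

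**Figure D2:**
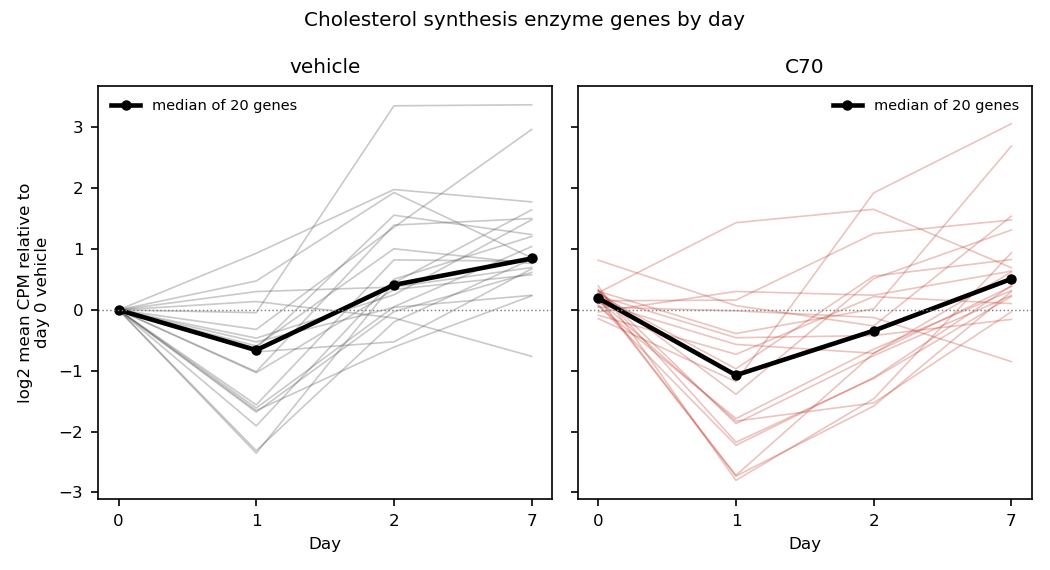
Log2 mean CPM of each of the 20 synthesis enzymes (thin lines) relative to day 0 vehicle, with days 0, 1, 2 and 7 evenly spaced on the x axis and vehicle and C70 in separate panels. The median of the 20 (thick line) fell to -0.66 on day 1 in vehicle and stood at 0.41 by day 2, whereas after C70 it was still below 0 on day 2.

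The 2 treatments were set against each other day by day, to ask how a treatment that ended on day 0 left these genes later. Of the 34 members, 5 were called higher and 0 lower on day 0 (background 5.89% and 3.09% of all genes), where 20 members (and 30.8% of all genes) had an unadjusted P under 0.05. The count of higher calls was 5 with DESeq2, 2 with quantile normalization, 3 with a replicate block in a fit of these groups and 2 to 5 when each sample was left out. On day 1, 3 were higher and 11 lower (background 13.6% and 7.8%). On day 2, 0 were higher and 19 lower (16.9% and 13.6%), and on day 7 1 was higher and 11 lower (14.3% and 4.85%). The enzymes made up most of the lower calls, with 9 of 20 on day 1, 16 on day 2 and 9 on day 7. Their median log2 fold change was 0.19 on day 0, -0.32 on day 1, -0.95 on day 2 and -0.30 on day 7, while the medians over all genes were -0.000426, -0.00599, -0.00355 and 0.00379. On day 2 every C70 sample lay below every vehicle sample for 19 of the 20 enzymes (background 29%), Lbr being the exception, and on day 7 for 14 (12.8%). These 4 comparisons use different samples, but each day's vehicle and C70 groups also enter the course comparisons above, which are therefore not independent of them. In bulk RNA, fewer cells expressing a gene and less RNA per cell cannot be told apart.

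**Figure D3:**
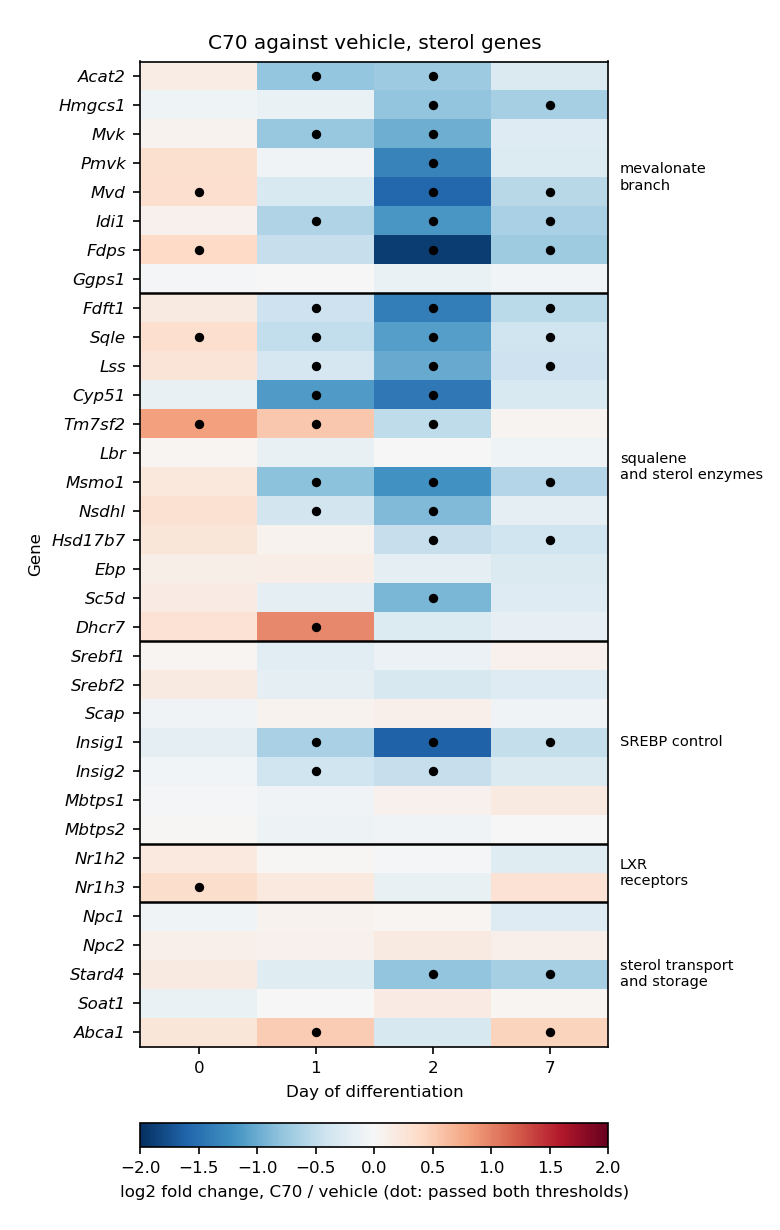
Log2 fold change of C70 against vehicle for the 34 members (rows, grouped by role) on days 0, 1, 2 and 7 (columns), blue for lower and red for higher, with a dot where both thresholds were passed. The day 2 column is blue for nearly all enzymes, down to -1.91 for Fdps. Tm7sf2, Dhcr7 and Abca1 are among the members that turn from red to blue between days 1 and 2.

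In the mevalonate branch 7 of 8 genes were called lower on day 2 (background 13.6%), with the largest fall of any member in Fdps, and Ggps1, the synthase of geranylgeranyl diphosphate, was not. Fdps, which makes farnesyl diphosphate at the fork between sterols and prenyl groups, was read at 9.04, 9.25 and 9.26 CPM in the vehicle samples of day 2 and at 2.29, 2.42, 2.57 and 2.51 after C70. No C70 sample came near the vehicle samples, and the log2 fold change was -1.91 (SE 0.116, edgeR adjusted P = 1.94e-14). On day 7 Fdps had 23.6, 20.9, 19.9 and 19.95 CPM in vehicle and 14.3, 11.3, 13.2 and 12.9 after C70, still without overlap, with a log2 fold change of -0.70 (SE 0.0797, edgeR adjusted P = 2.16e-08). On day 0 the order was the other way round, with 6.36, 6.44 and 7.43 CPM in vehicle and 8.17, 9.43, 9.13 and 8.74 after C70, a log2 fold change of 0.39 (SE 0.0984, edgeR adjusted P = 0.0043). Day 1 was the low point of both courses, with 1.46, 1.13 and 1.37 CPM in vehicle and 0.822, 0.689, 1.29 and 1.07 after C70. The groups overlapped on day 1 and Fdps was not called there (-0.46, SE 0.200, edgeR adjusted P = 0.0911), while its falls from day 0 were -2.35 in vehicle and -3.20 after C70 on the log2 scale. Fdps is at chr3:89093588-89101959 of GRCm38 and had the lowest mean level of the members.

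Mvd, the decarboxylase that makes isopentenyl diphosphate, was likewise lowest on day 1 in both courses. Its vehicle samples had 76.5, 67.7 and 70.9 CPM on day 2 and its C70 samples 24.98, 26.6, 22.9 and 21.9. This is a log2 fold change of -1.57 (SE 0.0999, edgeR adjusted P = 4.86e-14), and the groups lay far apart. Day 7 values were 88.1, 66.5, 60.8 and 66.9 CPM in vehicle and 50.5, 45.7, 42.4 and 52.6 after C70, a log2 fold change of -0.56 (SE 0.0896, edgeR adjusted P = 8.61e-06) without overlap. On day 1 both groups were low, at 15.6, 12.8 and 12.9 CPM and 12.4, 9.99, 10.8 and 11.3 CPM, and Mvd was not called (-0.31, SE 0.127, edgeR adjusted P = 0.0529). It was called higher on day 0 (36.4, 44.5 and 40.8 CPM in vehicle, 50.1, 46.1, 53.2 and 53.6 after C70, log2 fold change 0.33 (SE 0.0980, edgeR adjusted P = 0.0164)), a call that ended when day 0 vehicle replicate 1 (0.25), C70 replicate 3 (0.31) or C70 replicate 4 (0.30) was left out. Pmvk, which phosphorylates phosphomevalonate a step earlier, had 33.0, 30.2 and 35.7 CPM in vehicle and 12.4, 14.2, 10.8 and 14.8 after C70 on day 2. Its log2 fold change was -1.33 (SE 0.124, edgeR adjusted P = 1.87e-10), and it was not called on days 0, 1 or 7. By day 7 Pmvk had risen in both courses, by 2.97 in vehicle (to 129, 93.3, 85.4 and 94.4 CPM) and 2.38 after C70 (to 89.4, 83.4, 75.4 and 84.4 CPM) on the log2 scale.

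Acat2, Mvk and Idi1 were the members of this branch that were called lower from day 1. Acat2, the cytosolic thiolase that starts the pathway, had 106, 122 and 113 CPM in vehicle and 66.2, 66.3, 67.5 and 66.9 after C70 on day 1, a log2 fold change of -0.77 (SE 0.0594, edgeR adjusted P = 9.24e-12). Its C70 samples stayed at their day 0 level of 67.4, 62.9, 66.5 and 67.8 CPM, whereas the vehicle samples had left theirs of 56.1, 63.8 and 59.1 CPM. On day 2 Acat2 had 234, 238 and 234 CPM in vehicle and 138, 147, 142 and 141 after C70 (-0.73, SE 0.0571, edgeR adjusted P = 5.7e-12), and it was not called on day 7. Mvk, mevalonate kinase, had 17.6, 18.9 and 16.3 CPM in vehicle and 7.96, 10.8, 11.8 and 11.1 after C70 on day 1, with a log2 fold change of -0.76 (SE 0.0986, edgeR adjusted P = 2.84e-07), and -0.98 on day 2 (adjusted P = 2.4e-11, same edgeR test). Idi1, the isomerase of isopentenyl diphosphate, was lower on all 3 later days: -0.60, -1.16 and -0.65 on the log2 scale (edgeR adjusted P = 0.00358, 1.16e-09 and 9.8e-07). On day 7 Idi1 was at 18.2, 22.4, 20.97 and 18.7 CPM in vehicle and 13.7, 13.4, 13.1 and 11.1 after C70, so the groups did not overlap. In the C70 course Idi1 had fallen from 11.3, 8.81, 10.97 and 10.1 CPM on day 0 to 1.90, 2.21, 1.93 and 2.29 on day 1 (-2.30, SE 0.127, edgeR adjusted P = 1.91e-16).

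Hmgcs1, the cytosolic synthase of HMG-CoA and the gene of the branch with the highest CPM on day 2, was first called lower on day 2. On days 0 and 1 its log2 fold changes after C70 were -0.09 ± 0.0601 and -0.14 ± 0.0610 (± SE), neither past the thresholds. On day 2 the vehicle samples had 489, 469.5 and 489 CPM and the C70 samples 284, 301, 272 and 261, a log2 fold change of -0.79 (SE 0.0592, edgeR adjusted P = 2.15e-12). On day 7 they had 380.4, 451, 424 and 375 and 272, 259, 253 and 249 CPM, a log2 fold change of -0.66 (SE 0.0557, edgeR adjusted P = 6.12e-11), about as large as on day 2. Every C70 sample was below every vehicle sample on both days. Ggps1 was the exception of the branch, with log2 fold changes between -0.13 and 0.00 over the 4 days, none past the thresholds.

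Among the 12 genes from squalene synthase onward, 9 were called lower on day 2 (background 13.6%), and Cyp51 fell the most. Cyp51, the lanosterol demethylase at chr5:4081145-4104746, had 145, 168 and 158 CPM in vehicle and 139.9, 135, 152 and 142 after C70 on day 0, which overlapped. On day 1 it stood at 148, 169.7 and 138 CPM in vehicle and at 72.3, 66.4, 72.4 and 66.2 after C70, a log2 fold change of -1.13 (SE 0.0634, edgeR adjusted P = 5.75e-15) and the largest fall of a member that day. On day 2 the vehicle samples had climbed to 1617, 1581 and 1619.8 CPM and the C70 samples to 577, 641, 594 and 568, a log2 fold change of -1.43 (SE 0.0602, edgeR adjusted P = 4.05e-18). By day 7 the C70 samples, at 1423, 1268, 1292 and 1253 CPM, stayed below the vehicle samples at 1712, 1591, 1624 and 1572, but the log2 fold change of -0.31 (SE 0.0559, edgeR adjusted P = 4.12e-05) missed the fold threshold. From day 0 to day 7 Cyp51 rose by 3.37 in vehicle and 3.20 after C70 on the log2 scale, exceeded among the members only by Nr1h3 in each course.

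Fdft1, Sqle, Lss and Msmo1 were, with Idi1, the 5 enzymes called lower on days 1, 2 and 7, as were 0.669% of all genes. Fdft1, squalene synthase, had 70.5, 70.9 and 73.1 CPM in vehicle and 27.4, 29.2, 28.3 and 24.8 after C70 on day 2, a log2 fold change of -1.38 (SE 0.0740, edgeR adjusted P = 9.62e-16). Its values on day 7 were 170.3, 138, 139 and 138 CPM and 107, 105, 93.0 and 100.2 CPM, a log2 fold change of -0.53 (SE 0.0626, edgeR adjusted P = 4.27e-08). At neither day did the groups overlap, although day 7 vehicle replicate 1 stood above the other vehicle samples. Msmo1, the methylsterol monooxygenase, had 48.9, 45.9 and 42.7 CPM in vehicle and 27.7, 27.4, 26.1 and 23.1 after C70 on day 1 (-0.81, SE 0.0736, edgeR adjusted P = 2.73e-10). It had 441, 391, 388 and 368 CPM in vehicle and 279.9, 275, 248 and 256 after C70 on day 7 (-0.58, SE 0.0591, edgeR adjusted P = 2.32e-09). On day 2 its log2 fold change was -1.22 ± 0.0647 (± SE), so the fall was largest at that day. Sqle, squalene epoxidase, was higher after C70 on day 0, with 145, 168 and 149 CPM in vehicle and 197, 195, 187 and 199.9 after C70 (0.34, SE 0.0597, edgeR adjusted P = 0.000116). It then turned lower, with log2 fold changes of -0.49, -1.10 and -0.39 on days 1, 2 and 7. The day 0 call of Sqle ended when day 0 vehicle replicate 1 (0.29), vehicle replicate 3 (0.31) or C70 replicate 4 (0.32) was left out. Lss, lanosterol synthase, had log2 fold changes of -0.34 ± 0.0573, -1.002 ± 0.0519 and -0.41 ± 0.0486 at the same days (± SE). On day 1 the call of Lss ended without day 1 vehicle replicate 2 (-0.28) or C70 replicate 1 (-0.31), and that of Fdft1 (-0.42) without vehicle replicate 1 (-0.31).

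Fdft1, Sqle and Msmo1 fell from day 0 to day 1 in both courses. In vehicle, Fdft1 went from 79.3, 87.3 and 79.6 CPM on day 0 to 18.8, 15.9 and 14.8 on day 1 (-2.31, SE 0.0838, edgeR adjusted P = 6.51e-21). After C70 it went from 93.6, 86.4, 98.8 and 93.5 to 12.6, 12.6, 11.96 and 12.3 (-2.91, SE 0.0763, edgeR adjusted P = 1.47e-24). Sqle went from 145, 168 and 149 to 48.2, 51.6 and 44.7 CPM in vehicle (-1.68 on the log2 scale) and from 197, 195, 187 and 199.9 to 36.8, 37.7, 31.6 and 30.5 after C70 (-2.51). Both genes thus had higher means after C70 than in vehicle on day 0, and lower means a day later. Msmo1 changed by -1.91 in vehicle, from 160.2, 185 and 171 CPM, and by -2.93 after C70, from 208, 181, 196 and 208 CPM. Sc5d, the sterol desaturase near the end of the pathway, was at 56.0, 53.3 and 55.9 CPM in vehicle and 28.1, 31.3, 29.9 and 27.3 after C70 on day 2, a log2 fold change of -0.92 (SE 0.0638, edgeR adjusted P = 3.5e-13). Against their own day 0, the C70 samples of day 2 were lower in Sc5d with a log2 change of -1.70 (from 96.6, 88.6, 93.4 and 99.8 CPM) and the vehicle samples with a change of -0.61. Nsdhl and Hsd17b7, which act with Msmo1 in removing methyl groups from lanosterol, were called lower on day 2 with log2 fold changes of -0.88 ± 0.0624 and -0.46 ± 0.0736 (± SE). Nsdhl was also called on day 1 (-0.37, and -0.32 and not called without day 1 vehicle replicate 1), and Hsd17b7 on day 7 (-0.40).

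Dhcr7 and Tm7sf2 went the other way on day 1. Dhcr7, the reductase that turns 7-dehydrocholesterol into cholesterol, had 69.1, 66.5 and 61.6 CPM in vehicle and 118, 133, 133 and 127 after C70 on day 1. With every C70 sample far above every vehicle sample, its log2 fold change was 0.96 (SE 0.0629, edgeR adjusted P = 2.25e-13). It had 44.1, 48.1 and 49.7 CPM in vehicle and 58.0, 58.5, 58.2 and 55.4 after C70 on day 0, not past the fold threshold (0.28 ± 0.0649, ± SE). On day 2 the order was reversed by value, with 191, 178 and 172 CPM in vehicle and 145, 153, 152 and 146 after C70, and the log2 fold change of -0.28 (SE 0.0594, edgeR adjusted P = 0.000255) again missed the fold threshold. Tm7sf2, a sterol reductase that acts on the product of CYP51, had 9.99, 11.6 and 10.0 CPM in vehicle and 19.3, 16.2, 19.1 and 19.8 after C70 on day 0, the largest rise of a member that day (0.82, SE 0.0906, edgeR adjusted P = 4.73e-08). It stayed higher on day 1, with 7.35, 7.84 and 7.73 CPM in vehicle and 10.5, 9.99, 11.1 and 12.7 after C70 (0.54, SE 0.101, edgeR adjusted P = 8.51e-05). On day 2 it was lower, with 12.7, 13.1 and 11.7 CPM in vehicle and 8.38, 9.45, 8.68 and 8.61 after C70 (-0.51, SE 0.0973, edgeR adjusted P = 4.97e-05), and on day 7 the groups overlapped. Lbr, the lamin B receptor with the same reductase activity, and Ebp, the sterol isomerase, were never called after C70, with log2 fold changes from -0.15 to 0.05 and from -0.29 to 0.12 over the 4 days.

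**Figure D4:**
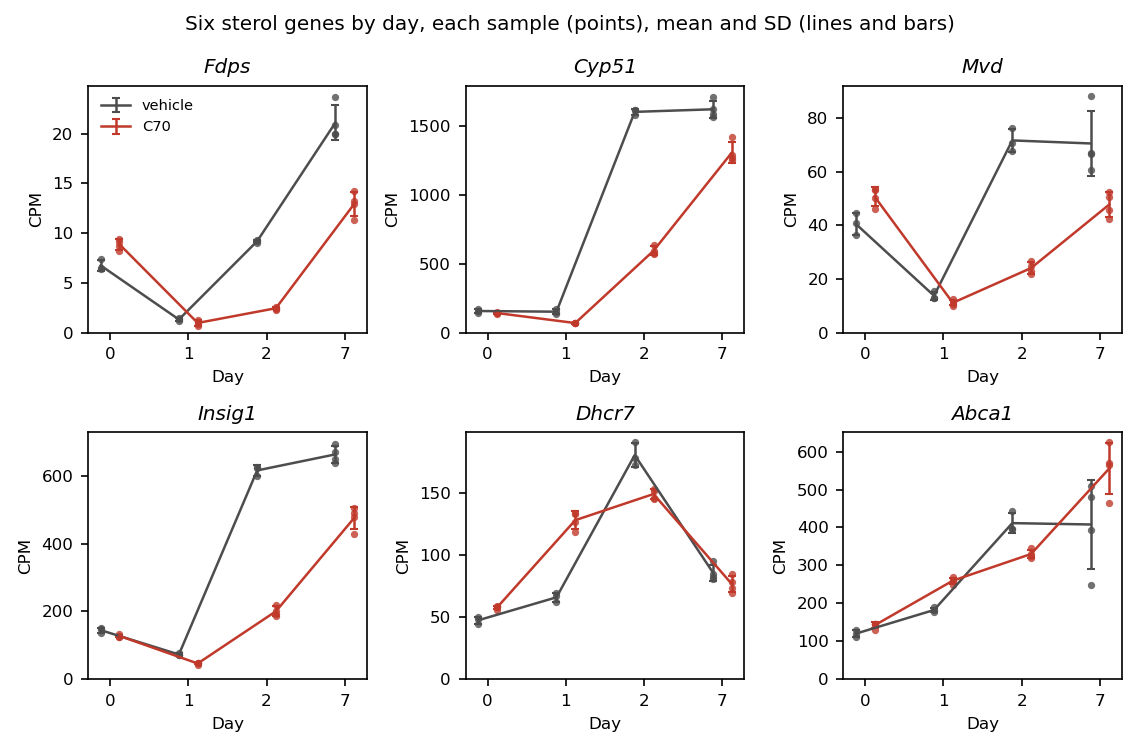
CPM of Fdps, Cyp51, Mvd, Insig1, Dhcr7 and Abca1 in each sample (points) on days 0, 1, 2 and 7, evenly spaced, with group means joined by lines and bars of 1 SD, for vehicle (grey, n = 3 on days 0 to 2 and 4 on day 7) and C70 (red, n = 4). On day 2 the C70 points of Fdps, Cyp51, Mvd and Insig1 lie far below the vehicle points, whereas on day 1 those of Dhcr7 and Abca1 lie above them, and the vehicle points of Abca1 on day 7 spread from 248 to 510.0.

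In the SREBP control group the INSIG genes changed and the other 5 genes were not called after C70 on any day. Insig1, an anchor that holds SCAP and the SREBPs in the endoplasmic reticulum and is itself an SREBP target, lies at chr5:28071363-28078662. Its vehicle samples had 137, 150.2 and 147 CPM on day 0, 71.4, 76.3 and 70.3 on day 1, 599, 628 and 623 on day 2 and 696, 672, 638 and 651 on day 7. Its C70 samples had 128, 125, 133 and 124 CPM on day 0, 47.3, 48.5, 42.2 and 46.4 on day 1, 186, 220.0, 202 and 193 on day 2 and 479, 490.1, 429 and 507 on day 7. The C70 samples were below the vehicle samples without overlap on all 4 days, and both courses dipped on day 1. The log2 fold changes were -0.66 (SE 0.0605, edgeR adjusted P = 4.11e-10) on day 1, -1.62 (SE 0.0557, edgeR adjusted P = 3.03e-20) on day 2 and -0.48 (SE 0.0514, edgeR adjusted P = 7.35e-09) on day 7, with -0.18 and no call on day 0. Only Fdps had a larger fall on day 2.

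Insig2, the related anchor, rose through differentiation without a dip. In vehicle it went from 33.7, 31.6 and 33.9 CPM on day 0 through 48.7, 52.8 and 53.0 on day 1 and 64.5, 66.3 and 69.5 on day 2 to 220.0, 202, 201 and 192 on day 7, a rise of 2.62 on the log2 scale. After C70 it went from 31.0, 30.1, 32.6 and 33.3 CPM through 39.7, 36.3, 39.8 and 40.5 and 47.0, 49.8, 48.7 and 48.8 to 171, 177, 164 and 153, a rise of 2.39. The C70 samples lay below the vehicle samples on days 1, 2 and 7. Insig2 was called lower on day 1 (-0.40, SE 0.0557, edgeR adjusted P = 9.14e-07) and day 2 (-0.46, SE 0.0542, edgeR adjusted P = 2.44e-08) and missed the fold threshold on day 7 (-0.29).

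The transcription factor genes themselves were not called after C70 at any day. Srebf1, which encodes SREBP-1, had 38.5, 39.8 and 35.7 CPM in vehicle on day 0, 151, 170.5 and 155 on day 1, 159.8, 164 and 169 on day 2 and 112, 139, 137 and 142 on day 7. After C70 it had 39.3, 38.6, 38.3 and 40.1 CPM on day 0, 136, 129.8, 142 and 133 on day 1, 151, 149.6, 152 and 151 on day 2 and 141, 136, 144 and 146 on day 7. It thus rose strongly from day 0 to day 1 in both courses, by 2.06 in vehicle and 1.79 after C70 on the log2 scale, a step at which most of the enzymes were called lower. Its log2 fold changes after C70 were 0.04 ± 0.0626, -0.23 ± 0.0558, -0.12 ± 0.0557 and 0.09 ± 0.0523 (± SE) on days 0, 1, 2 and 7, none past the thresholds. Srebf2, which encodes the SREBP tied most closely to cholesterol synthesis, had 286, 320.0 and 295 CPM in vehicle on day 0, 147, 134 and 141 on day 1, 132, 128 and 131 on day 2 and 161, 180.3, 181 and 179.7 on day 7. Its C70 samples had 340.4, 344, 336 and 338 CPM on day 0, 122, 130.1, 117 and 119.6 on day 1, 104, 106, 105 and 104 on day 2 and 155, 138, 142 and 152 on day 7. Without overlap, the C70 samples were above vehicle on day 0 and below it on days 1, 2 and 7. The log2 fold change on day 2 was -0.32 (SE 0.0495, edgeR adjusted P = 2.99e-06), just under the fold threshold in size, and it passed with DESeq2 (-0.33), with median-ratio scaling in edgeR (-0.33), and without day 2 vehicle replicate 2 (-0.33) or C70 replicate 2 (-0.32).

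Scap, the sterol sensor that escorts the SREBPs, and the protease genes Mbtps1 and Mbtps2 stayed within -0.10 to 0.18 in log2 fold change after C70 over the 4 days. In vehicle, Scap and Mbtps1 were lower on day 7 than on day 0, with log2 changes of -0.53 and -0.58.

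The LXR receptors differed in their courses. Nr1h3, which encodes LXR alpha, had 6.20, 5.25 and 5.90 CPM in vehicle on day 0, 16.5, 21.5 and 21.8 on day 1, 65.0, 62.5 and 65.2 on day 2 and 154, 132, 132 and 119 on day 7, the steepest rise of a member (4.53, SE 0.104, edgeR adjusted P = 9.05e-27). After C70 it had 6.70, 8.75, 7.69 and 6.73 CPM on day 0, 20.7, 22.7, 25.8 and 21.9 on day 1, 58.1, 60.7, 58.7 and 55.4 on day 2 and 163, 167, 167 and 155 on day 7 (4.45, SE 0.0892, edgeR adjusted P = 3.15e-28). The C70 samples were above vehicle without overlap on days 0 and 7, and below it on day 2. On day 0 it was called higher (0.35, SE 0.128, edgeR adjusted P = 0.0488), with an adjusted P value near the threshold. The call was lost in 20 of the 29 fits that left out 1 sample, with edgeR adjusted P values up to 0.175. Most of these fits left out a sample of a later day, which is not in the day 0 comparison. In them the log2 fold change stayed near 0.355, with edgeR adjusted P values up to 0.0541. On day 7 its log2 fold change of 0.28 (SE 0.0680, edgeR adjusted P = 0.00128) missed the fold threshold, and without day 7 vehicle replicate 1 it was 0.36 and called. Nr1h2, which encodes LXR beta, was not called after C70 on any day, with log2 fold changes from -0.24 to 0.20.

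Abca1, the transporter that exports cholesterol to apolipoproteins and a classic LXR target, was higher on day 2 than on day 0 in both courses by every sample. In vehicle it had 118, 111 and 130.2 CPM on day 0, 189, 181 and 177 on day 1, 396, 443 and 395 on day 2 and 248, 510.0, 479 and 394 on day 7. After C70 it had 130.0, 146, 146 and 145 CPM on day 0, 259.8, 268, 248 and 262 on day 1, 329.9, 319, 346 and 326 on day 2 and 565, 464, 625 and 569 on day 7. The C70 samples were all above vehicle on day 1 and all below it on day 2, and overlapped it on days 0 and 7. On day 1 the log2 fold change was 0.51 (SE 0.131, edgeR adjusted P = 0.00231). On day 2 it was -0.32 (SE 0.128, edgeR adjusted P = 0.0378), just under the fold threshold in size, and it passed with DESeq2 and with median-ratio scaling (-0.33 each) and without day 2 C70 replicate 3 (-0.34). On day 7 it was 0.45 (SE 0.119, edgeR adjusted P = 0.00314), but this rested on day 7 vehicle replicate 1, the lowest vehicle sample, without which it was 0.27 and not called. The day 7 call also ended in fits of the compared groups only, both with and without a replicate block.

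Of the other transport genes, Stard4 was called after C70. Stard4, a carrier of cholesterol between membranes and a known SREBP target, was at 44.3, 37.1 and 39.9 CPM in vehicle and 26.8, 25.1, 19.6 and 22.2 after C70 on day 2 (-0.78, SE 0.0994, edgeR adjusted P = 8.89e-08). On day 7 the values were 24.5, 33.0, 29.8 and 29.2 and 20.4, 14.3, 18.6 and 20.1 CPM (-0.66, SE 0.0999, edgeR adjusted P = 3.32e-06). The groups did not overlap on either day. Stard4 ended below its start, with log2 changes from day 0 to day 7 of -1.14 in vehicle and -1.99 after C70. Soat1, which esterifies cholesterol for storage, was lower on day 7 than on day 0 by a log2 change of -2.11 in vehicle (from 183, 188 and 190.0 to 37.2, 43.2, 45.9 and 46.4 CPM) and -1.95 after C70 (from 166, 172, 174 and 173 to 43.2, 43.8, 41.3 and 48.8 CPM). Npc1 and Npc2 encode proteins that together carry cholesterol out of lysosomes. Soat1, Npc1 and Npc2 were not called after C70 on any day, with log2 fold changes between -0.26 and 0.18.

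Whether the C70 effect itself changed between neighbouring days was tested with interaction contrasts in the same model. From day 0 to day 1, 16 of the 34 members moved lower and 1, Dhcr7, moved higher (background 5.23% and 8.68%). The largest moves were those of Msmo1 (-1.02, SE 0.0982, edgeR adjusted P = 6.07e-09), Cyp51 (-0.99), Acat2 (-0.92), Fdps (-0.85), Sqle (-0.83) and Mvk (-0.83). From day 1 to day 2, 17 moved lower and 0 higher (background 6.49% and 7.36%), led by Fdps (-1.45, SE 0.238, edgeR adjusted P = 4.35e-05), Mvd (-1.27), Pmvk (-1.26), Dhcr7 (-1.23), Tm7sf2 (-1.05) and Insig1 (-0.97). From day 2 to day 7, 17 moved higher and 0 lower (background 11.9% and 9.04%), led by Fdps (1.201, SE 0.143, edgeR adjusted P = 1.28e-07), Insig1 (1.14), Cyp51 (1.12), Pmvk (1.06), Mvd (1.02) and Fdft1 (0.85). The fall of the enzymes was thus smaller on day 7 than on day 2 in 18 of 20 by value and in 14 by this test. The genes Mvd, Fdps, Fdft1, Sqle, Lss, Msmo1, Nsdhl and Sc5d moved lower at both of the earlier steps, as did 0.669% of all genes. The first of these calls was lost for Sc5d in 4 of the 29 fits that left out 1 sample, and the 16 lower moves from day 0 to day 1 ranged from 13 to 16 over these fits. Neighbouring contrasts share the samples of the day between them, so these counts are not independent.

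Genes of the neighbouring pathways were counted from fixed lists. Of 9 other genes of sterol synthesis, uptake and handling in the table, 5 were called lower and 2 higher on day 2 (background 13.6% and 16.9%), with -0.58 as their median log2 fold change. The counts lower and higher were 1 and 1 on day 0 (3.09% and 5.89%), 3 and 1 on day 1 (7.8% and 13.6%), and 4 and 0 on day 7 (4.85% and 14.3%). Scarb1, the receptor for high-density lipoprotein, was called higher on day 0 (0.40) and lower on days 1 (-0.33) and 2 (-1.19, SE 0.0524, edgeR adjusted P = 1.14e-17). The 10 partners of INSIG and of protein degradation in the endoplasmic reticulum had 1 lower call on day 1 (Erlin1, -0.37, background 7.8%), 1 higher call on day 7 (Rnf145, 0.40, background 14.3%) and no other. The unadjusted P of edgeR was under 0.05 for 3, 6, 6 and 7 of them on days 0, 1, 2 and 7, and for 30.8%, 48.2%, 56.0% and 48.2% of all genes.

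With TMM scaling the background over all genes leaned to higher calls on all 4 days. Of all genes called on day 2, 55.5% were higher with this scaling and 48.0% with quantile normalization. On day 1 these shares were 63.6% and 50.9%. Targets of LXR and oxysterol enzymes were counted next, beside this background. Of 6 in the table, 2, 4, 4 and 3 were called higher after C70 on days 0, 1, 2 and 7 (background 5.89%, 13.6%, 16.9% and 14.3%), and 1, Lpcat3, was called lower on day 2 (-0.45, background 13.6%). Abcg1, a cholesterol exporter, had log2 fold changes of 0.39 ± 0.0795, 0.96 ± 0.0718, 1.13 ± 0.0696 and -0.29 ± 0.0609 (± SE) and was called higher on days 0, 1 and 2. On day 2 it had 54.6 ± 1.54 CPM in vehicle (SD, n = 3) and 119.8 ± 6.29 after C70 (SD, n = 4). Cyp7b1, which hydroxylates oxysterols, was the largest change of this list, with 5.89 ± 0.974 and 19.7 ± 0.926 CPM on day 2 and log2 fold changes of 1.36, 1.75 and 1.53 on days 1, 2 and 7. Abca1 on day 2 did not share their direction.

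The other branches fed by the same precursors were counted in the same way. Of 12 genes of the non-sterol isoprenoid branch, 2, 3 and 2 were called lower on days 1, 2 and 7 (background 7.8%, 13.6% and 4.85%) and none higher. The median log2 fold change on day 2 was -0.27. The largest was Pdss1, which makes the ubiquinone side chain (-0.95, SE 0.107, edgeR adjusted P = 2.03e-08 on day 1). Of 13 fatty acid synthesis genes, 2 were called lower and 2 higher on day 1 (background 7.8% and 13.6%), which is near the background. On day 2, 9 were lower and 0 higher (13.6% and 16.9%), and on day 7, 4 were lower and 2 higher (4.85% and 14.3%). On day 2 their median log2 fold change was -0.63, beside -0.95 for the cholesterol enzymes, and every C70 sample lay below every vehicle sample in all 13 (background 29%). Fasn, fatty acid synthase, had log2 fold changes of 0.19 ± 0.0860, -0.18 ± 0.0848, -0.96 ± 0.0841 and 0.26 ± 0.0783 (± SE) and was called on day 2 only. Elovl6, a fatty acid elongase, was the largest change of this list, at -1.37 (SE 0.0779, edgeR adjusted P = 8.23e-15) on day 1, and Acss2, which makes acetyl-CoA from acetate, fell by 1.27 on day 2 on the log2 scale.

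Markers of the differentiation state moved with the enzymes on some days and not on others. Of 9 adipocyte markers 8 are in the table, and their summed level ran from 5090.4 to 5358 CPM in vehicle and 3179.6 to 3302 after C70 on day 1. It ran from 22542 to 23447 and 12726 to 14180.1 on day 2, and from 23018 to 27191 and 25006 to 27406 on day 7. C70 cells thus had the lower sums on days 1 and 2, when 7 and 7 of the 8 were called lower (background 7.8% and 13.6%). On day 0 the sums were the other way round without overlap, 1288 to 1409.8 CPM in vehicle and 1469.8 to 1523 after C70, but most of the sum was Lpl (1237 ± 61.7 and 1399 ± 21.997 CPM, not called). Cebpa was called higher and Pparg and Fabp4 lower (background 5.89% and 3.09%). On day 7 the sums overlapped and 0 were called lower and 1, Adipoq, higher (background 4.85% and 14.3%), whereas 9 of the 20 cholesterol enzymes were still lower. Of 7 preadipocyte and fibroblast markers 6 are in the table. Their sums ran from 3394 to 3466 CPM in vehicle and 5813 to 6179 after C70 on day 2, and from 2191 to 2874 and 4698 to 5419 on day 7, with 5 and 6 of the 6 called higher (background 16.9% and 14.3%). On days 0 and 1 these sums overlapped, at 19975 to 20645 and 19598 to 21524 CPM and at 8130.0 to 9035 and 8982 to 9905 CPM. Thy1 and Ly6a were called higher on both days, Dlk1 higher and Col1a1 lower on day 1. The part of the differentiation state in the enzyme results was not tested. Of the markers of other cell types, 2 of 6 for macrophages (Cd14 and Cd68), 1 of 6 for muscle (Des), 1 of 6 for bone and cartilage (Runx2) and 0 of 5 for endothelium are in the table. Cd68 had 1.31 ± 0.309, 1.88 ± 0.132 and 1.59 ± 0.226 CPM in vehicle on days 0, 1 and 2 (SD, n = 3) and 19.1 ± 0.481, 14.1 ± 0.681 and 6.68 ± 0.293 after C70 (SD, n = 4), called higher on each of these days and not on day 7. Cd14 was called higher on days 1 and 2, with 2.62 ± 0.361 and 2.06 ± 0.322 CPM in vehicle and 4.15 ± 0.721 and 2.91 ± 0.331 after C70. Des was called higher on days 0, 1 and 2, by the most on day 1 (2.14 ± 0.393 CPM in vehicle and 6.12 ± 0.837 after C70), and Runx2 on days 2 and 7 (29.8 ± 2.93 and 42.7 ± 1.499 CPM on day 2). The part of these markers in the enzyme results was not tested.

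The library of day 7 vehicle replicate 1 stood apart from its group. Its genes differed from the means of its group by a median of 0.220 on the log2 scale without sign, against 0.055 to 0.126 in the other libraries, and its enzymes were higher by a median of 0.206. Without it the same number of members, 11, were called lower after C70 on day 7, and 1 was called higher, Nr1h3 in place of Abca1.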

How the data were processed

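RNA-seq of 29 samples of 3T3-L1 cells in 8 groups was analysed from the deposited table of whole-number counts per gene. Alignment by the authors used STAR (2.7.2a) and the GRCm38 genome of Ensembl release 97. The submitters' processing notes name edgeR 3.26.8. The counting program, its use of strand and the filter that left 11959 genes are not given in the sources used here. The table is named as normalized but its counts are not scaled between samples.

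The counts, 16320275 to 24037170 per sample, were scaled by TMM (factors 0.898 to 1.08) and fitted over all genes and groups in edgeR 4.0.16 (R 4.3.3) by the quasi-likelihood test, with Benjamini-Hochberg adjustment within each comparison and a 2-sided alternative. Comparisons were of C70 and vehicle within each day, of each course with its day 0, and of C70 effects between neighbouring days. CPM were divided by exon length for levels between genes. Replicates differed beyond counting noise (chi-square per degree of freedom 2.66 to 46.8 over 39 pairs). In simulated data each gene had the same level in all groups, except for genes changed in the C70 group of day 2. There, 86 of 100 genes changed 1.5-fold and 97 of 100 changed 2-fold were recovered, with 1 false call, over 11959 genes. In the real data 3642 genes were called between C70 and vehicle on day 2, so these rates may not hold for it.

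All 34 members have rows in the table and none was removed here. Sample values were given for members called in a comparison and among the 6 largest changes there, and for Insig1, Insig2, Srebf1, Srebf2, Nr1h3 and Abca1, and lists of other pathways by counts, with values for set genes and the largest change. The members and lists were chosen with earlier results of these data known. Some of the genes that the rule names are not reported here. Gene positions and near copies (BLAST 2.17.0, at least 95% identity over 300 bases) come from the reference annotation of GRCm38, and promoters from RefSeq. Alternatives were other thresholds and scalings, prior counts of 2 and 0.5 in limma 3.58.1, a mean CPM over 5, DESeq2 1.42.0, fits of the compared groups only, with and without a replicate block, and leaving out each sample.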

Additional observations from a re-analysis of the deposited data

Results flagged for a closer look

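Among 170 groups of 4 samples tested for a sample far from the others, 8 held such a sample, and chance alone gives about 8.5, since 1 in 20 groups is picked by chance. Of these, 5 were day 7 vehicle replicate 1, which had the highest CPM of its group in Acat2 (237.4, against 190.3 to 194.7), Mvk (63.14, against 50.52 to 50.65) and Fdft1 (170.3, against 137.8 to 139.1) and the lowest in Srebf1 (112.5, against 137.4 to 141.5) and Srebf2 (160.8, against 179.7 to 181.1). The others were day 0 C70 replicate 3 in Npc1 (103.6 CPM, against 95.96 to 96.72), day 1 C70 replicate 2 in Npc1 (107.9, against 94.94 to 97.14) and day 0 C70 replicate 1 in Abca1 (130.0, against 144.6 to 146.5).

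The C70 effect on the members differed between neighbouring days by edgeR's test of the difference. From day 0 to day 1 it moved higher for 1 member (Dhcr7) and lower for 16 (8.68% and 5.23% of all genes), from day 1 to day 2 it moved higher for 0 and lower for 17 (7.36% and 6.49%), and from day 2 to day 7 it moved higher for 17 and lower for 0 (11.9% and 9.04%).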

How the results depend on the processing

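Calls of members after C70 depended most on the fold threshold. On the adjusted P value alone, 13 members were higher and 1 lower at day 0, 3 higher at day 2, 3 higher and 23 lower at day 7, and 3 effects moved lower from day 2 to day 7. The shares of all genes on this rule were 10.9%, 8.91%, 25.3%, 22.3%, 18.8% and 13.9% in the same order. With a fold change over 1.5, 1 member was higher at day 0, 1 higher and 6 lower at day 1, and 0 higher and 4 lower at day 7. On that threshold the vehicle course had 4 lower calls at day 2 and 5 at day 7, and the C70 course 5 at day 7. The shares of all genes on it were 2.75%, 7.48%, 1.64%, 7.93%, 0.87%, 23.5%, 28.8% and 26.2% in this order. Quantile normalization gave 2 higher calls at day 0. The share of higher calls among all genes fell under it from 63.6% to 50.9% at day 1 and from 74.6% to 60.5% at day 7. At day 2 this share fell from 55.5% to 48.0%, so that most calls of all genes were then lower. Among members the share was 21.4% and 18.8% at day 1, 0% with both scalings at day 2, and 8.33% and 7.69% at day 7. Fits of the compared groups only gave 0 higher calls at day 7 without a replicate block, and with the replicate block 3 at day 0 and 0 at day 7. The labels do not say whether the numbers pair the samples. Same-numbered vehicle and C70 samples of a day had deviations correlated at -0.205 to 0.214 over 13 pairs, over 0.1 in 2. These are deviations from means of 3 or 4 samples, so the correlations cannot exclude pairing.

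When each sample was left out in turn, higher calls at day 0 ranged from 2 (without vehicle replicate 1) to 5, with 3 without C70 replicate 3 or 4, and effects that moved lower from day 2 to day 7 from 0 to 1 (without day 7 vehicle replicate 1). Lower calls ranged from 9 to 12 at day 1, 19 to 20 at day 2 and 11 to 14 at day 7. Srebf1 at day 0, not called, ranged from -0.001185, the change of sign without vehicle replicate 3, to 0.07463. Stard4, Sc5d and Insig2 between days 0 and 1, Nr1h3 between days 1 and 2 and Mvk in the vehicle course at day 2 were also called in some of these fits and not in others. The cause was not tested. Of 267 results for single members, 265 kept direction and call with DESeq2 and 260 with quantile normalization. These 267 do not cover every member in every comparison. Fdps, with values down to 0.689 CPM, has the least depth of the members.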
